A study of Mus musculus with 5 samples.

Results

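*Col2a1*-expressing synovial sarcoma (SyS) cells were examined in single-cell RNA-seq of 5 mouse SyS tumours. A cell was selected by 2 steps. The first was a gate for SyS cells, with at least 750 detected genes, at most 25% mitochondrial UMIs, at least 3 of 8 SyS genes (*Adgrb3*, *Sox11*, *Tle1*, *Hmga2*, *Reln*, *Nxph1*, *Epha5* and *Gpc3*) and no more than 1 UMI in the sum of *Ptprc*, *Cdh5*, *Csf1r* and *Rgs5*, which mark leukocytes, endothelium, macrophages and pericytes. A UMI (unique molecular identifier) counts a captured RNA molecule 1 time. The second was 3 or more UMIs of *Col2a1*, and the cells that passed are called *Col2a1* cells here. They numbered 16999 of 30700 gate cells, or 55.4%, among 51670 cells in all. The gate cells without a *Col2a1* UMI, called zero cells, numbered 5404, or 17.6% of the gate. The remaining 8297 gate cells held 1 or 2 UMIs.

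All tumours arose in *hSS2* mice, in which TATCre protein injected into the limb at 8 days of life switched on human *SS18::SSX2*, the fusion oncogene of this cancer, from the *Rosa26* locus. No tumour without the fusion was part of the comparison. The labels gave the histology, with 2 biphasic tumours (BP), 1 monophasic (MP), 1 mixed (MP+BP) and 1 poorly differentiated and monophasic (PD+MP). Both BP tumours share the leading number of their labels, and whether they came from 1 animal was not stated. Total counts were 89996321 to 118649103 UMIs per tumour, and pairs of tumours shared 15 to 33 cell barcodes.

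*Col2a1* encodes the chain of type II collagen, the fibrillar collagen of cartilage. In chondrocytes SOX9, with SOX5 and SOX6, drives its transcription, and the collagen is laid down with the type IX and type XI collagens and with aggrecan, the product of *Acan*. *Col2a1* is also transcribed in the embryo outside cartilage, for example in notochord, otic vesicle and neuroepithelium. The comparison therefore asked whether other cartilage genes, or neural genes, were higher in cells that carried *Col2a1*. In the GENCODE annotation of build GRCm38 the gene lies on the minus strand at chr15:97975602-98004695.

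*Col2a1* was spread over most gate cells of every tumour. At the depth as sequenced, *Col2a1* cells made up 61.6% of gate cells in BP replicate 1, 65.6% in BP replicate 2, 56.8% in MP, 52.3% in MP+BP and 41.7% for PD+MP. The exact 95% binomial interval, which covers counting error only, ran from 60.1% to 63% in BP replicate 1, the tumour with the fewest gate cells, and from 40.5% to 42.9% in PD+MP. These shares moved with depth, since *Col2a1* cells had a median of 11606.5 to 16497 UMIs and zero cells 3553 to 4790. When each gate cell was thinned at random to 5000 UMIs, shallower cells left out, the share with 3 or more *Col2a1* UMIs was 27.0% in BP replicate 1, 41.2% in BP replicate 2, 30.3% in MP, 44.0% in MP+BP and 16.2% for PD+MP. MP+BP thus moved from the fourth place to the first, and PD+MP was lowest on both scales. The BP tumours differed from each other by more at 5000 UMIs than BP replicate 1 did from MP, so no difference between labels is read from these shares.

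The summed level of *Col2a1* in gate cells was 385 and 509 CPM (UMIs per 1000000 UMIs) in BP replicates 1 and 2, 462 CPM in MP, 619 CPM in MP+BP and 275 CPM for PD+MP. RNA set free by broken cells reaches every droplet, so cells of other types gave the background. Immune-like cells, with at least 2 UMIs of *Ptprc* and *Csf1r* and at most 1 of the 8 SyS genes, held 6.70 to 20.2 CPM. At 5000 UMIs, 3.82% to 9.36% of immune-like cells (median depth before thinning 4601.5 to 6276.5 UMIs, against 7711 to 11409.5 in the gate) had a *Col2a1* UMI against 69.4% to 84.9% of gate cells. Endothelial-like cells held 5.35 to 15.9 CPM and mural-like cells 10.02 to 14.6 CPM. Outside the gate, 1113 cells of sufficient quality also reached 3 UMIs and were not examined further.

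**Figure D1:**
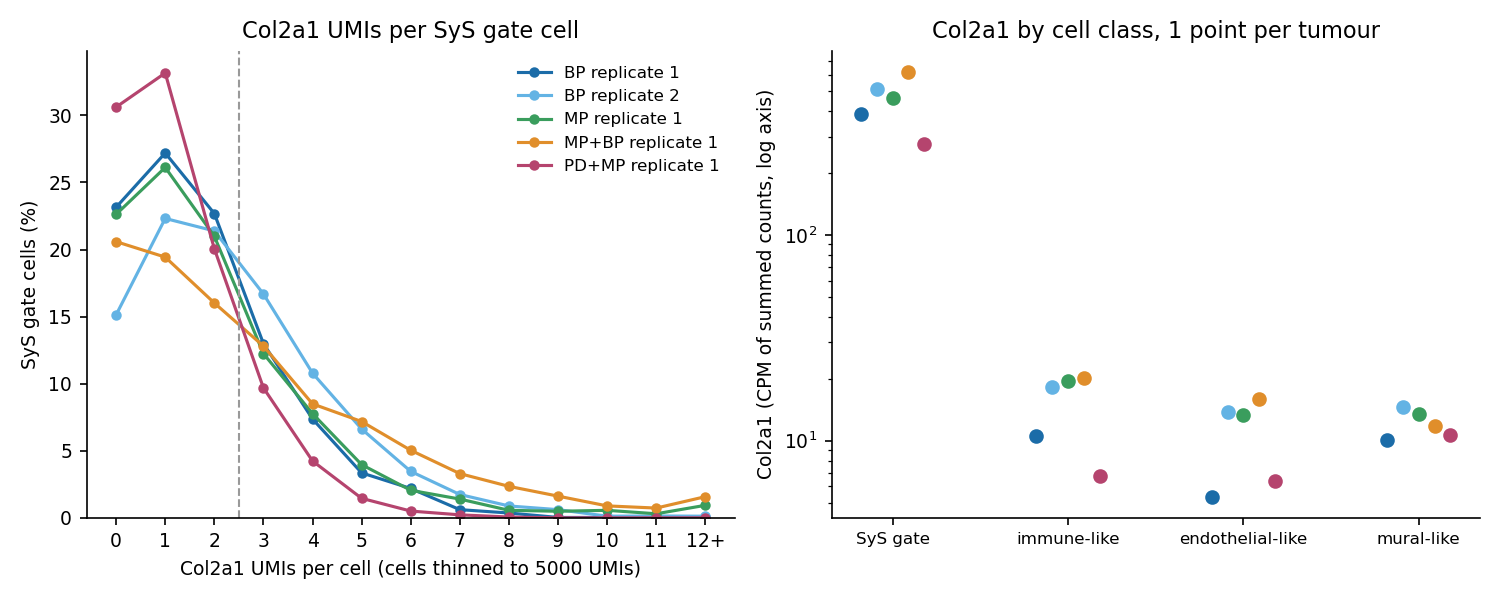
Left, the share of SyS gate cells (%) by number of *Col2a1* UMIs after thinning each cell to 5000 UMIs, 1 line per tumour, with the limit for *Col2a1* cells dashed. Right, *Col2a1* as CPM of summed counts on a log axis in gate cells and in 3 other cell classes, 1 point per tumour. The last bin pools 12 or more UMIs. Shares fell off above 1 UMI, and the gate cells of all 5 tumours, at 275 to 619 CPM, lay above every other class.

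The limit of 3 UMIs fell inside a continuous distribution. There were 2895 gate cells with exactly 3 UMIs just inside it and 3605 with exactly 2 just outside, and 5480 of the *Col2a1* cells, or 32.2%, held 10 or more. The median per *Col2a1* cell was 7 UMIs in both BP tumours and MP, 8 in MP+BP and 5 for PD+MP, and the highest cell held 150, in MP+BP. At 5000 UMIs the variance of *Col2a1* over gate cells was 1.25 times the mean in PD+MP, 1.47 and 1.61 times in BP replicates 1 and 2, 2.62 times in MP and 2.90 times in MP+BP, where a value of 1 is the spread of counting alone. The same ratio was 1.92 to 6.09 for *Igfbpl1* and 3.52 to 6.34 for *Erbb4*. In each tumour *Col2a1* had the lowest ratio of the 3 genes, whose mean levels differ. Other genes for which the ratio was taken lay lower than *Col2a1* in 2 tumours. In MP these were *Sox9* (1.76), *Sox5* (1.87), *Zbtb20* (2.17) and *Trps1* (2.42). In MP+BP they were *Sox5* (2.14), *Sox6* (2.58) and *Mest* (2.66).

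*Igfbpl1*, which encodes a protein related to the insulin-like growth factor binding proteins, and *Erbb4*, a receptor for neuregulins, had been named as marker genes of the *Col2a1* cells, so their values are given without a test. They were compared between *Col2a1* cells and zero cells of the same tumour, paired 1 to 1 within 5% of total UMIs. This gave 317 pairs in BP replicate 1, 562 in BP replicate 2, 461 in MP, 857 in MP+BP and 593 for PD+MP, 2790 in all. The pairs took in 16.4% of the *Col2a1* cells and 51.6% of the zero cells, so the *Col2a1* cells compared were shallow ones with a median of 4 or 5 *Col2a1* UMIs. *Igfbpl1* stood at 620 CPM in *Col2a1* cells against 506 in zero cells in BP replicate 1, 525 against 452 in BP replicate 2, 1141 against 1289 in MP, 339 against 119 in MP+BP and 381 against 297 for PD+MP. *Erbb4* stood at 654 against 647 CPM, 459 against 571, 1312 against 1289, 851 against 697 and 105 against 160 in the same order. *Igfbpl1* was thus high in zero cells as well, with a clear gap in MP+BP, and *Erbb4* differed more between tumours than between sides, lowest for PD+MP on both.

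Gene by gene, *Col2a1* cells had no gene called higher than zero cells and 30 genes called lower. Counts were summed per tumour and side and tested with edgeR's quasi-likelihood test, the tumour as a block, at a Benjamini-Hochberg adjusted p under 0.05 over 13168 genes. The selecting genes were not tested. The 30 genes are 0.228% of those tested, and the genes called higher are 0% of them. At an unadjusted p under 0.05, 553 genes were higher and 975 lower. DESeq2 on the same sums called 3 higher (*Tnrc18*, *Mest* and *Syt1*) and 84 lower. The 30 genes had log2 fold changes from -5.53 to -0.61, and 23 of them were lower in *Col2a1* cells in all 5 tumours. The call was kept without each tumour in turn for 9 of the 30, namely *Dcc*, *Col5a2*, *Penk*, *Hmox1*, *Isg15*, *Kctd12*, *Bst2*, *Fcer1g* and *Col3a1*.

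**Figure D2:**
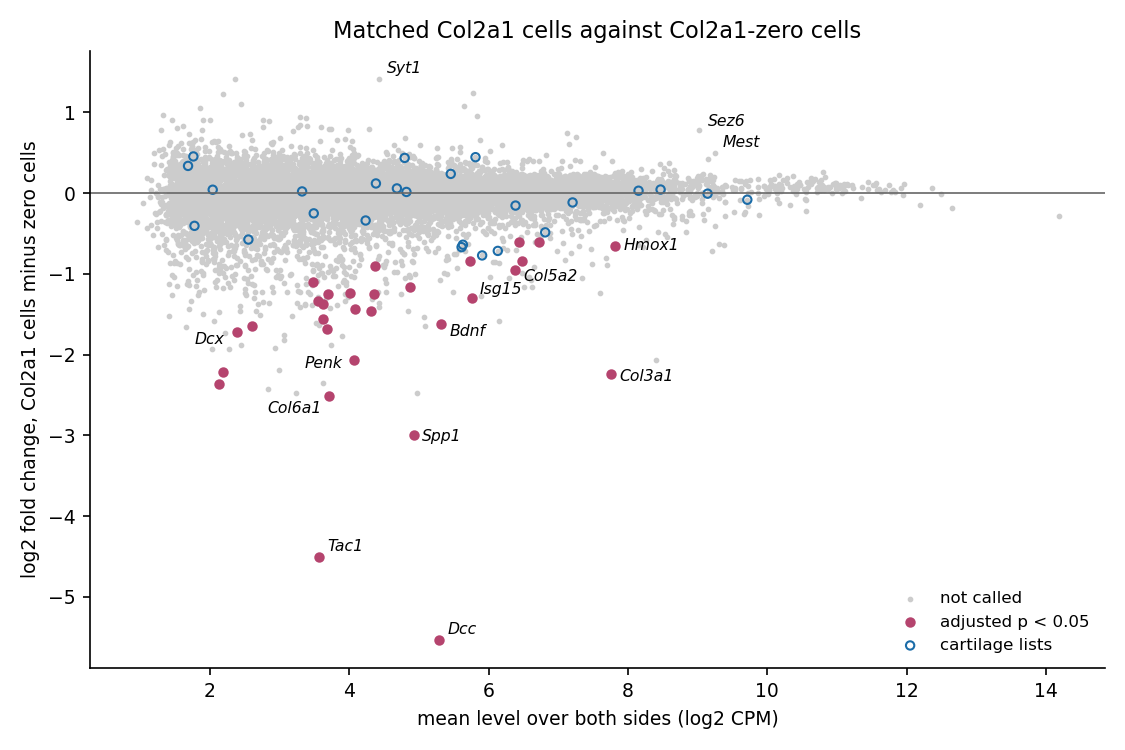
Log2 fold change of each of 13168 genes (*Col2a1* cells minus matched zero cells, vertical) against its mean level over both sides (log2 CPM, horizontal). Red points are the 30 genes called by edgeR, all below 0, and open blue circles are the 25 cartilage genes tested, which lie between -0.77 and 0.45.

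No cartilage gene passed the test in this comparison. Of 50 genes listed as cartilage collagens, cartilage matrix or regulators of chondrocytes, 25 had enough counts to be tested by edgeR, 12 with a positive and 13 with a negative fold change. None of the 25 was called in either direction, while DESeq2 called 1 lower. Their median log2 fold change was -0.01 beside 0.00 for the other genes tested. At an unadjusted p under 0.05, 2 were higher and 5 lower.

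Among the partners of type II collagen in the cartilage matrix, the defining genes were at or near 0. *Acan*, which encodes the core protein of the large cartilage proteoglycan, gave 2 UMIs in all matched *Col2a1* cells and 3 in all matched zero cells, and *Col9a1*, a chain of type IX collagen, gave 2 on each side. Both were at or under a floor of 3 counts on each side, so no fold is given. Over all *Col2a1* cells, paired or not, at most 0.50% in any tumour had an *Acan* UMI and at most 0.14% a *Col9a1* UMI. *Col11a2*, a chain of type XI collagen, was too sparse to test, at 3.02 CPM ± 0.61 (SD, n = 5) against 2.23 ± 0.96. *Col11a1*, which encodes another chain of type XI collagen, differed between tumours far more than between sides. In *Col2a1* cells it stood at 37.6 CPM in BP replicate 1, 33.2 in BP replicate 2, 0.29 in MP, 4.22 in MP+BP and 14.8 for PD+MP, and in zero cells at 33.1, 24.5, 0.87, 27.8 and 12 CPM. Its log2 fold change was -0.34 ± 0.39 (SE, edgeR adjusted p = 0.79), and without MP+BP it was 0.28, not called either.

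The transcription factors that drive *Col2a1* in chondrocytes were present on both sides. *Sox9* stood at 120 CPM in *Col2a1* cells against 157 in zero cells in BP replicate 1, 113 against 195 in BP replicate 2, 47.1 against 45.3 in MP, 112 against 213 in MP+BP and 56.2 against 64.3 for PD+MP. It was lower in *Col2a1* cells in 4 of 5 tumours, with a log2 fold change of -0.49 ± 0.12 (SE), and was not called (edgeR adjusted p = 0.15). *Sox5* stood at 288 CPM ± 174 against 281 ± 171 and *Sox6* at 357 ± 102 against 351 ± 121 (SD, n = 5), with log2 fold changes of 0.03 ± 0.10 and 0.04 ± 0.08 (SE) and edgeR adjusted p-values of 0.94 and 0.88. Cells with *Sox9* transcripts were common among all *Col2a1* cells, from 46.8% in MP to 73.8% in BP replicate 1, against 0.42% to 2.99% of immune-like cells, which were shallower. No difference in any of these 3 factors passed the test at this depth. With no filter on low counts *Sox9* was called lower (edgeR adjusted p = 0.00242), in 1 of 20 alternative settings. Its log2 fold change was negative in all settings, from -0.58 to -0.37.

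The cartilage collagen list, 4 genes tested, had a median log2 fold change of 0.39. Its highest members were *Col9a2* at 0.45 ± 0.28 (SE, edgeR adjusted p = 0.58) and *Col27a1*, a fibrillar collagen of cartilage and other tissues, at 0.44 ± 0.17 (SE, edgeR adjusted p = 0.36), both named here after their values were seen. The matrix list, 5 genes tested, had a median of -0.16 and the regulator list, 16 genes tested, one of -0.05. Summed over its members, the matrix list stood at 80.5 to 254 CPM in *Col2a1* cells and 81.2 to 214 CPM in zero cells, against 130 to 331 CPM in immune-like cells. The matrix sum in *Col2a1* cells was below that of immune-like cells of the same tumour in all 5 tumours. Of the 21 matrix genes, 9 to 13 were at 0 in immune-like cells and 2 to 10 in matched *Col2a1* cells. The immune-like sum thus rested on part of the list and is not read as its background. The cartilage collagen list stood at 122 CPM in *Col2a1* cells against 96.5 in zero cells in BP replicate 1, 117 against 132 in BP replicate 2, 76.3 against 51.1 in MP, 104 against 79.0 in MP+BP and 39.2 against 27.8 for PD+MP, and at 9.76 to 26.6 CPM in immune-like cells. It was higher in *Col2a1* cells of 4 of 5 tumours, and no gene of it was called. *Col27a1* was higher in the same 4 tumours and made up a large part of the sum. In BP replicate 1 it held 74.8 of the 122 CPM in *Col2a1* cells and 55.2 of the 96.5 in zero cells. The regulator list stood at 2171 to 2863 CPM in *Col2a1* cells, 2112 to 3513 CPM in zero cells and 1313 to 2049 CPM in immune-like cells.

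Few *Col2a1* cells held several cartilage matrix genes together. The count was made over 25 collagen and matrix genes, leaving out *Col11a1*, *Col27a1* and *Xylt1*, a choice made after values were seen, and is a description without a test. Among all *Col2a1* cells, 12.9% in BP replicate 1, 5.11% in BP replicate 2, 6.34% in MP, 12% in MP+BP and 1.22% for PD+MP held 3 or more of these genes. Among the matched cells, which were shallower, the share was 2.21% of *Col2a1* cells against 0.946% of zero cells in BP replicate 1, 1.07% against 0.356% in BP replicate 2, 0.217% against 0.651% in MP, 2.92% against 2.22% in MP+BP and 1.01% against 0.169% for PD+MP. The shares of matched cells rest on 1 to 25 cells each.

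**Figure D3:**
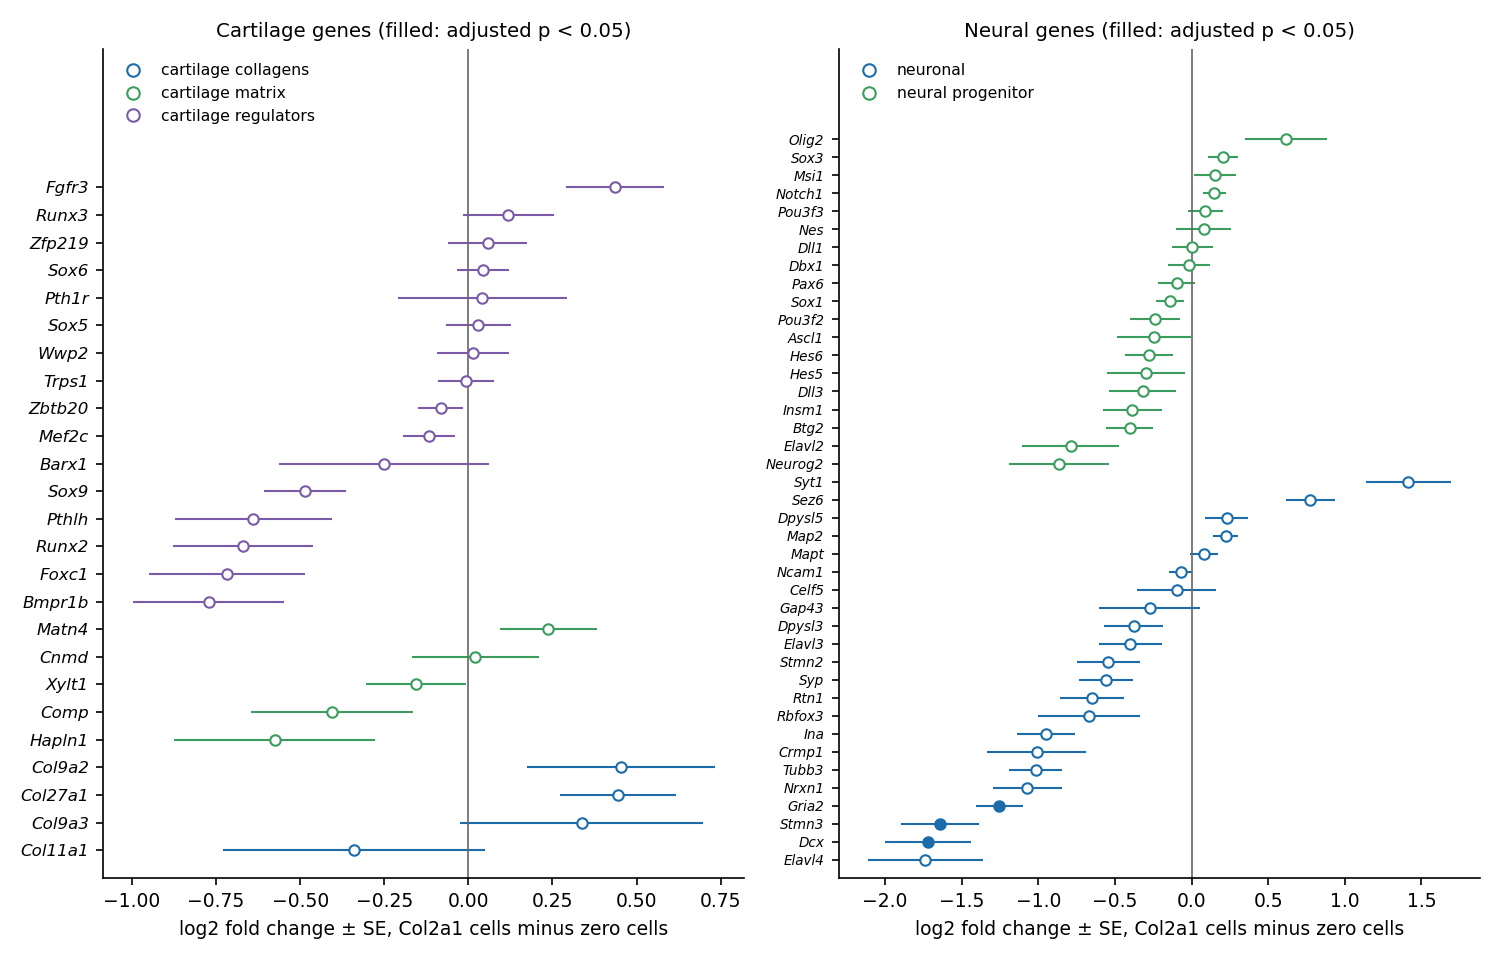
Log2 fold change (*Col2a1* cells minus matched zero cells) of each tested cartilage gene (left) and neural gene (right), 1 point per gene with its SE as a bar, grouped by list and filled where called by edgeR. No cartilage point is filled, and the 3 filled neural points (*Dcx*, *Stmn3* and *Gria2*) lie below 0.

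Neural genes had a negative median, and the 3 called were all lower in *Col2a1* cells. The neural progenitor and neuronal lists held 55 genes, of which 41 were tested, 12 with a positive and 29 with a negative fold change, with a median log2 fold change of -0.28 beside 0.00 for the other genes. At an unadjusted p under 0.05, 4 were higher and 14 lower. The 19 progenitor genes had a median of -0.14 with none called, and the 22 neuronal genes one of -0.55. Summed over its members, the neuronal list did not follow its median. It stood at 1008 CPM in *Col2a1* cells against 839 in zero cells in BP replicate 1 and 865 against 879 in BP replicate 2. In MP it was 847 against 842, in MP+BP 1802 against 1096 and in PD+MP 1595 against 1414. A large part of this sum was 1 gene, *Sez6*. In BP replicate 1 it held 617 of the 1008 CPM in *Col2a1* cells and 384 of the 839 in zero cells. In MP+BP it held 1071 of 1802 and 353 of 1096. With *Sez6* taken off, a step chosen after values were seen, the sum was lower in *Col2a1* cells of every tumour. The summed progenitor list was lower in *Col2a1* cells except for PD+MP, at 1193 against 1116 CPM. Of the notochord and otic list, 12 genes were tested and 0 called, 5 positive and 7 negative, with a median of -0.06. Of the neural crest and glia list, 9 were tested and 0 called, 2 positive and 7 negative, with a median of -0.33. At an unadjusted p under 0.05, 4 of those 9 were lower and 0 higher.

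*Gria2*, which encodes a subunit of the AMPA glutamate receptor, stood at 3.1 CPM in *Col2a1* cells against 6.22 in zero cells in BP replicate 1, 3.84 against 9.64 in BP replicate 2, 22.5 against 54.0 in MP, 7.04 against 19.3 in MP+BP and 1.42 against 2.25 for PD+MP. It was lower in *Col2a1* cells of every tumour, and the log2 fold change was -1.25 ± 0.15 (SE; edgeR adjusted p = 0.0114), and without MP the adjusted p by edgeR was 0.099. *Stmn3*, a microtubule regulator of neurons, fell by 1.64 ± 0.25 on the log2 scale (SE, edgeR adjusted p = 0.0349), from 9.39 CPM ± 6.03 to 2.82 ± 1.70 (SD, n = 5). Its call was lost without BP replicate 1 (edgeR adjusted p = 0.0996), BP replicate 2 (0.116), MP (0.114) or PD+MP (0.0504). *Dcx*, which encodes doublecortin of migrating neurons, fell by 1.72 ± 0.28 (SE, edgeR adjusted p = 0.0442), from 8.17 CPM ± 6.62 to 2.28 ± 1.35, and its call was lost without BP replicate 1 (edgeR adjusted p = 0.135), BP replicate 2 (0.18) or MP (0.114). All 3 were sparse, with a UMI of *Gria2* in 98 of 2790 matched *Col2a1* cells and in 197 of 2790 zero cells.

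The neuronal genes did not all share one sign. *Sez6*, which encodes a membrane protein of neurons, stood at 617 CPM in *Col2a1* cells against 384 in zero cells in BP replicate 1, 461 against 259 in BP replicate 2, 264 against 216 in MP, 1071 against 353 in MP+BP and 915 against 672 for PD+MP, a log2 difference of 0.78 ± 0.16 (SE; edgeR adjusted p = 0.093). *Syt1*, a calcium sensor of synaptic vesicles, had a log2 difference of 1.42 ± 0.28 (SE; edgeR adjusted p = 0.0749), with 111 CPM against 28.0 in MP+BP and 0.61 against 0.20 for PD+MP. Both were higher in *Col2a1* cells of all 5 tumours without passing the threshold. *Tubb3*, a tubulin of neurons, lay nearest to the threshold among uncalled neural genes and was lower in all 5 tumours, at 7.71 CPM ± 4.03 against 15.8 ± 5.05 (SD, n = 5; log2 difference -1.02 ± 0.17 SE, edgeR adjusted p = 0.0504). *Snap25*, a synaptic vesicle fusion protein which did not pass the filter on low counts, gave 5 UMIs in matched *Col2a1* cells and 112 in zero cells. These 4 were named after their values were seen. *Nnat*, an imprinted gene of neuroendocrine tissue, stood at 432 CPM against 101 in MP+BP and at 63.3 against 67.8 in PD+MP, and the log2 fold change was 0.69 ± 0.28 (SE; edgeR adjusted p = 0.37). *Sox2*, *Insm1*, *Sst* and *Zic1* had log2 fold changes of -0.22, -0.39, -1.05 and -0.36, none called.

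*Penk*, which encodes the precursor of enkephalin peptides, stood at 5.04 CPM in *Col2a1* cells against 16 in zero cells in BP replicate 1, 6.58 against 22.3 in BP replicate 2, 1.16 against 7.84 in MP, 10.0 against 70.5 in MP+BP and 7.89 against 20.8 for PD+MP. It was lower in every tumour, and the log2 fold change was -2.07 ± 0.22 (SE; edgeR adjusted p = 0.00684). *Dcc*, the netrin receptor, had the lowest fold change of the 30, at -5.53 ± 0.33 (SE, edgeR adjusted p = 0.000373), and was named after its values were seen. Its 1206 UMIs in zero cells came from 75 of 2790 cells, and 65.2% of them from 10 cells. Neither side of PD+MP held a *Dcc* UMI in matched cells. Over all gate cells, where depth was not matched, cells with 2 or more *Dcc* UMIs were 34 of 2586 *Col2a1* cells and 14 of 551 zero cells in BP replicate 1, 53 of 5050 and 40 of 868 in BP replicate 2, 9 of 2964 and 4 of 873 in MP, and 26 of 3608 and 4 of 1507 in MP+BP. *Dcc* was thus also present in *Col2a1* cells, and the fold change describes the matched cells.

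**Figure D4:**
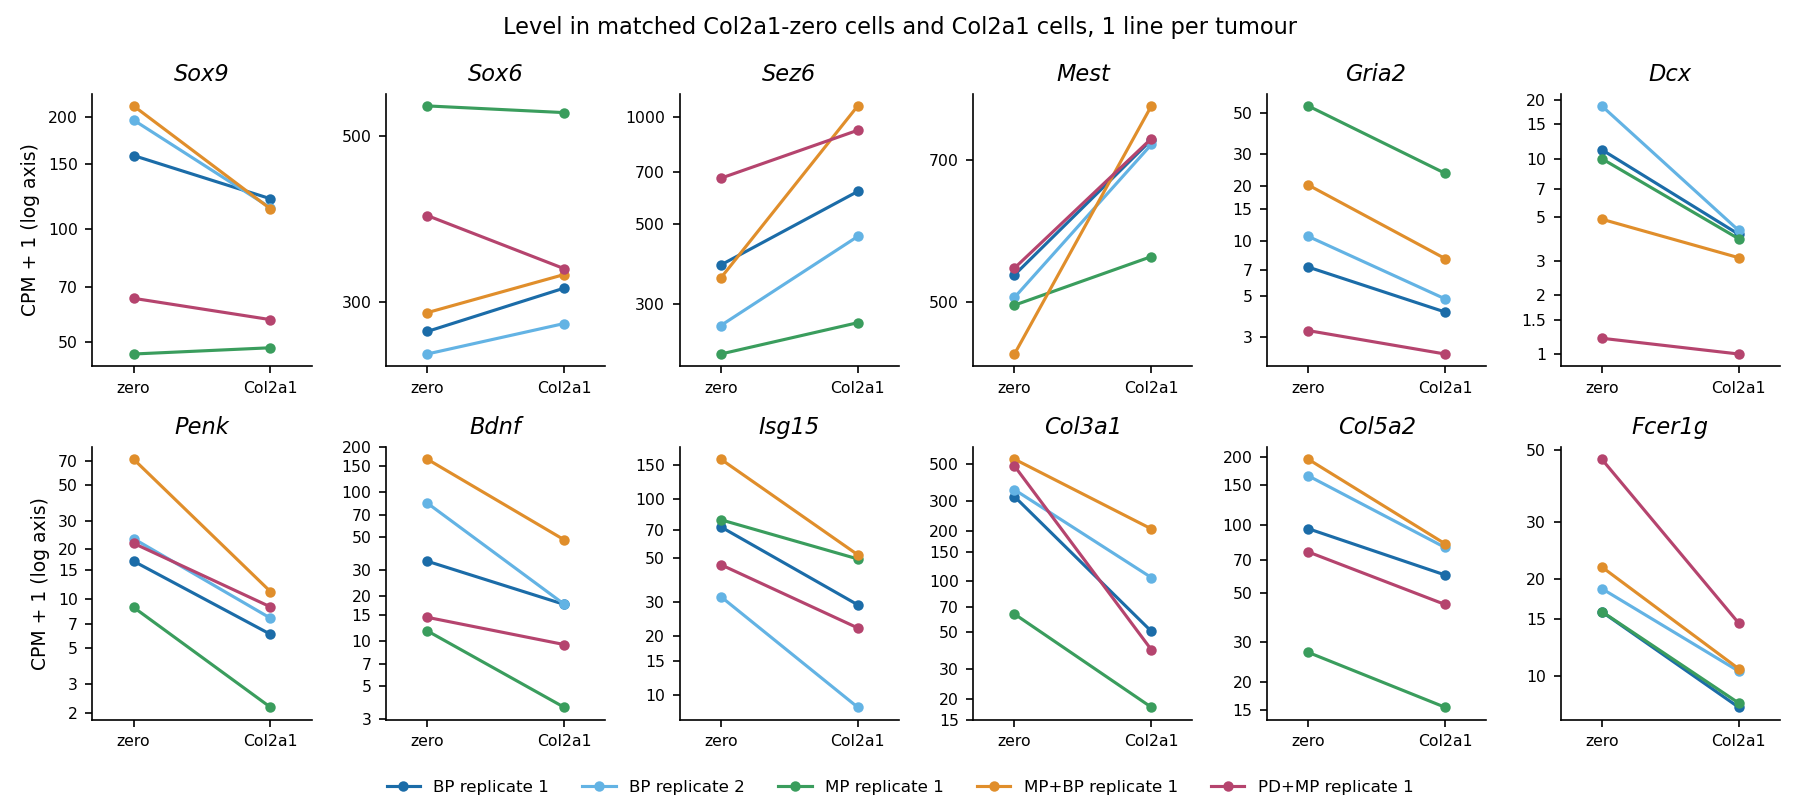
CPM of summed counts plus 1, on log axes, in matched zero cells (left of each panel) and *Col2a1* cells (right) for 12 genes, with a line joining both sides of each tumour. *Gria2*, *Penk*, *Col3a1* and *Col5a2* were lower in *Col2a1* cells of all 5 tumours, *Sez6* was higher in all 5 without passing the test, and *Sox9* was lower in 4 of 5.

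Other collagens were among the genes lower in *Col2a1* cells. Of 21 collagen genes outside the cartilage list, 18 were tested, 5 with a positive and 13 with a negative fold change, with a median log2 fold change of -0.64, and 3 were called, all lower. *Col3a1*, the chain of type III collagen of soft connective tissue, stood at 49.2 CPM in *Col2a1* cells against 317 in zero cells in BP replicate 1, 104 against 349 in BP replicate 2, 16.8 against 62.7 in MP, 203 against 531 in MP+BP and 38 against 483 for PD+MP. The difference had the same sign in all 5 tumours, at -2.25 ± 0.28 on the log2 scale (SE, edgeR adjusted p = 0.0115). A UMI of it was found in 9.07% of matched *Col2a1* cells and 19.5% of zero cells. *Col5a2*, a chain of type V collagen and the neighbour of *Col3a1* on chromosome 1, fell by 0.96 ± 0.09 (SE, edgeR adjusted p = 0.00402), from 111 CPM ± 68.4 to 55.3 ± 27.6 (SD, n = 5). *Col6a1*, a chain of the microfibrillar type VI collagen, fell by 2.51 ± 0.38 (SE, edgeR adjusted p = 0.0294), with 64.6% of its UMIs in zero cells from 10 cells. Its call was lost without BP replicate 2 (edgeR adjusted p = 0.0878) or MP (0.0618).

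Genes outside the lists that were lower in *Col2a1* cells of every tumour included *Isg15*, an interferon-induced ubiquitin-like protein, at 31.2 CPM ± 18.5 against 76.8 ± 49.7 (SD, n = 5) and a log2 difference of -1.30 ± 0.15 (SE; edgeR adjusted p = 0.00708). *Bdnf*, a neurotrophin, stood at 18.3 CPM ± 17.1 against 61.5 ± 65.3, a log2 difference of -1.62 ± 0.21 (SE; edgeR adjusted p = 0.0116), with an adjusted p by edgeR of 0.0536 without BP replicate 2. *Kctd12* fell by 1.17 on the log2 scale (edgeR adjusted p = 0.00708). The other 7 named by the same rule were *Frmpd4*, *Timp1*, *Galnt7*, *Abi3bp*, *Emb*, *Cebpb* and *Rspo3*, with log2 fold changes from -1.69 to -0.84. Each lost its call without at least 1 tumour, with an edgeR adjusted p of 0.124 for *Frmpd4*, 0.115 for *Timp1*, 0.0878 for *Galnt7*, 0.116 for *Abi3bp*, 0.0903 for *Emb*, 0.142 for *Cebpb* and 0.124 for *Rspo3* without BP replicate 2. *Spp1*, which encodes osteopontin, fell by 3.00 ± 0.38 (SE, edgeR adjusted p = 0.0116), but it was higher in *Col2a1* cells of MP, and without PD+MP the adjusted p by edgeR was 0.0645. Of its 1388 UMIs in zero cells, 69.0% came from 10 cells and 516 from a single cell. It was the 1 gene called of 7 tested in the osteogenic and tendon list, 2 with a positive and 5 with a negative fold change and a median of -0.23. *Scx*, a tendon transcription factor of that list named after its values were seen, was higher in *Col2a1* cells of all 5 tumours without being called (0.96 ± 0.25 SE, edgeR adjusted p = 0.166). *Kctd8*, the single gene called among 145 tested of those the study lists as switched on during sarcomagenesis, fell by 1.56 (edgeR adjusted p = 0.0406) and lost its call without BP replicate 2 (0.113), MP+BP (0.251) or PD+MP (0.0612).

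Macrophage markers were lower in summed level on the same side. *Fcer1g*, an Fc receptor subunit of myeloid cells, was lower in *Col2a1* cells at -1.24 ± 0.16 on the log2 scale (SE, edgeR adjusted p = 0.0115). A UMI of it was found in 3.37% of matched *Col2a1* cells and 5.30% of zero cells. Of its UMIs, 49.0% in *Col2a1* cells and 53.1% in zero cells came from 10 cells. All 9 tested genes of the 10-gene macrophage list had negative fold changes, with a median of -1.01 and 1 called. Summed, the list stood at 70.9 CPM in *Col2a1* cells against 119 in zero cells in BP replicate 1, 77.1 against 116 in BP replicate 2, 48.0 against 61.5 in MP, 33.3 against 86.8 in MP+BP and 107 against 279 for PD+MP, and at 20306 to 27013 CPM in immune-like cells. When cells with any UMI of the macrophage or the lymphoid and granulocyte list were left out, an alternative chosen after seeing the data, 1 gene was called higher (*Pcp4*, log2 fold change 1.5) and 5 lower (*Dcc*, *Tac1*, *Isg15*, *Timp1* and *Gria2*). In those cells *Col3a1* had a log2 fold change of -1.59 (edgeR adjusted p = 0.116), *Col5a2* one of -0.83 (0.211) and *Penk* one of -1.39 (0.272). In the full set of pairs, the 451 *Tac1* UMIs in zero cells came from 30 of 2790 cells, 86.3% of them from 10 cells. For *Timp1*, 171 of 547 UMIs in zero cells came from a single cell. *Pcp4* was higher in *Col2a1* cells of 3 tumours and lower in both BP tumours (3.49 against 5.06 CPM and 1.37 against 2.20). At most 1 of the 10 macrophage genes was at 0 on either side of any tumour. The fibroblast list summed to 158 CPM in *Col2a1* cells against 157 in zero cells in BP replicate 1, 127 against 166 in BP replicate 2, 108 against 116 in MP, 165 against 242 in MP+BP and 157 against 378 for PD+MP. The muscle and erythroid list summed to 57.0 against 876 CPM, 39.5 against 234, 473 against 20.03, 11.6 against 9.04 and 18.6 against 21.8 in the same order, so its side changed between tumours, and 0 of its 3 tested genes were called. The mast cell protease genes *Cma1* and *Mcpt4*, named after their values were seen, were called lower (log2 fold changes -1.46 and -1.25), with 69.1% and 76.5% of their UMIs in zero cells from 10 cells. *Mcpt4* lost its call without BP replicate 1 (edgeR adjusted p = 0.0727), and neither passed the filter on low counts without MP or without MP+BP. Doublet-like profiles made up 2.84% to 4.77% of matched *Col2a1* cells and 2.67% to 6.58% of zero cells. The part of these values in the other results was not tested.

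*Col2a1* cells lay nearer to each other than to zero cells in MP+BP above all. For each matched cell the 20 nearest matched cells of the same tumour were found over 2000 variable genes, with *Col2a1* and the listed genes left out. *Col2a1* cells made up 58.7% of the neighbours of *Col2a1* cells against 50.5% of those of zero cells in BP replicate 1. The same shares were 63.6% against 44.9% in BP replicate 2, 61% against 51% in MP, 74.1% against 31.3% in MP+BP and 54.7% against 48.5% for PD+MP. The differences were 8.22, 18.7, 9.96, 42.8 and 6.25 percentage points in that order. All 5 were positive, and the largest was in MP+BP. It did not meet the rule for 1 tumour far from the rest that is given below. These shares are a description, since cells of 1 tumour are not replicates.

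**Figure D5:**
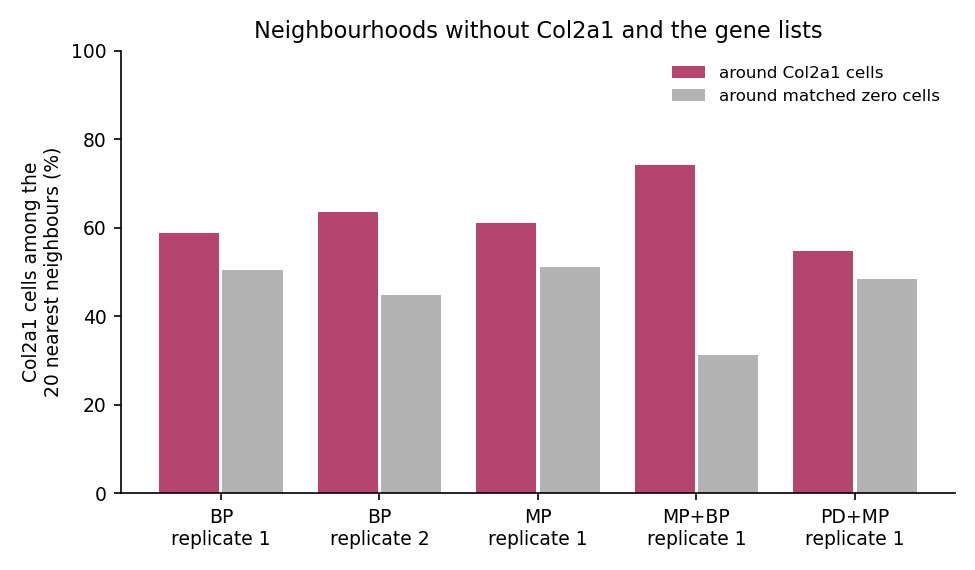
Share (%) of *Col2a1* cells among the 20 nearest matched cells, for *Col2a1* cells and for zero cells of each tumour. The gap was 42.8 points in MP+BP and 6.25 to 18.7 points in the other tumours.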

How the data were processed

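Single-cell 3′ RNA-seq was made from 5 tumours, of which one portion was dissociated and another used for histology. Per the labels, the deposited counts are filtered UMI count matrices that the authors made with Cell Ranger 7.2.0 on mm10. The rule, the markers and the gene lists were chosen with earlier results of these data known. Counts of matched cells were summed per tumour and side, and tested with edgeR 4.0.16 in R 4.3.3 (TMM scaling, filterByExpr, quasi-likelihood test, tumour as a block), leaving the 13 genes of the rule and mitochondrial genes untested but within library totals. Pairing comes from both sides being cells of 1 tumour. Matching was optimal and 1 to 1 within 5% of total UMIs. P-values weigh the difference between the sides against how much that difference varied over these tumours. edgeR moderates this spread toward the trend over all genes, so it is not that of the single gene alone. The SE of each fold change comes from the same fit. The level of each tumour is taken up by the block. Named genes were the called genes of the lists, fixed cartilage and neural genes, and the 10 most changed called genes outside the lists with at least 10 CPM on either side and 1 direction in every tumour. Doublets were kept, and were removed in an alternative by Scrublet score (scanpy 1.11.5). The BP samples differed beyond counting noise (median chi-square 6.07 per gene against 0.455), so they are not 1 library deposited 2 times. This does not show that they are independent animals. The fit was tested on simulated data. DESeq2 1.42.0, other scaling, filters, matching, gates and left-out tumours were the alternatives.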

Additional observations from a re-analysis of the deposited data

Results flagged for a closer look

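Of 47 values examined, 6 met a rule for a closer look, either 1 tumour far from the rest or opposite signs by label. By the first rule chance marks about 1 in 20 groups of 5. The second rule can also be met by chance, and that is not part of this rate. In 4 of them 1 tumour lay far from the rest in its difference in log2 CPM between *Col2a1* cells and zero cells. *Kctd12* differed by -0.53 in PD+MP and by -1.39 to -1.20 in the other tumours. *Col6a1* differed by -4.62 in BP replicate 1 and by -1.98 to -1.23 elsewhere. *Fcer1g* differed by -1.75 in PD+MP and by -1.12 to -0.91 elsewhere. The median over the neural lists was -0.048 in PD+MP and -0.23 to -0.20 elsewhere. In the other 2, tumours with a biphasic label (both BP and MP+BP) had one sign and MP and PD+MP the opposite one. For *Sox6* the former were higher by 0.30, and for the median of the cartilage list the difference was -0.16. Neither difference was tested.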

How the results depend on the processing

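Genes called higher, 0 in the report, numbered 3 with DESeq2, 1 without TMM, 79 with no filter on low counts, 3 with up to 3 zero cells per *Col2a1* cell, 2 with up to 3 *Col2a1* cells per zero cell, 2 when matched on detected genes, 5 and 4 with limits of 1 and 10 *Col2a1* UMIs, 1 in cells without immune-list UMIs (this and the setting of up to 3 *Col2a1* cells were chosen after seeing the data), and 0 to 5 when a tumour was left out (1 without BP replicate 1 and 5 without MP+BP). Genes called lower, 30 in the report, numbered 84 with DESeq2, 491 with no filter, 77 and 52 with up to 3 zero cells or 3 *Col2a1* cells, 53 when matched on UMIs other than *Col2a1*, 90 and 10 with limits of 1 and 10 UMIs, 12 with a gate of 5 of 8 genes, 5 without immune-list UMIs, and 18 to 52 when a tumour was left out (18 without BP replicate 2 and 52 without PD+MP). Without the replicate block that pairs both sides of a tumour, edgeR called 0 higher and 0 lower, with 29 and 132 at an unadjusted p under 0.05, and 0 neural genes lower. For the cartilage list, 1 gene was called higher and 5 lower with no filter, and 1 lower with DESeq2, and 0 when a tumour was left out. Its median was -0.12 without immune-list UMIs and -0.07 to 0.00 when a tumour was left out. Neural genes called higher numbered 2 with no filter, 1 with DESeq2, with up to 3 zero cells, with up to 3 *Col2a1* cells and with limits of 1 or 10 UMIs, and 0 to 1 when a tumour was left out. Neural genes called lower numbered 16 with no filter, 5 with up to 3 *Col2a1* cells, 1 and 0 with limits of 5 and 10 UMIs, 0 with the stricter gate, 1 without immune-list UMIs, and 1 to 4 when a tumour was left out. Their median was -0.39 with no filter, -0.13 with a limit of 10 UMIs, -0.16 with the stricter gate and -0.35 to -0.20 when a tumour was left out. The share of *Col2a1* cells in BP replicates 1 and 2, MP, MP+BP and PD+MP was 67.6%, 72.6%, 62.0%, 60.3% and 47.2% with the stricter gate and 65.6%, 70.0%, 62.4%, 58.5% and 47.7% at 1500 detected genes. It was 64.5% in BP replicate 2 and 40.4% in PD+MP with doublets removed, and 27.0%, 41.2%, 30.3%, 44.0% and 16.2% at 5000 UMIs. The cause of these changes was not tested. Among named genes, 602 values kept direction and side of the threshold, 176 lost the call, 5 gained it and 16, none called in either setting, changed sign. *Sox5*, *Sox6*, *Col11a1*, *Erbb4* and *Epcam* ranged from -0.064 to 0.12, -0.0023 to 0.12, -0.63 to 0.28, -0.21 to 0.0058 and -0.25 to 0.16 when a tumour was left out. *Sox5* and *Sox6* were at -0.040 and -0.032 with up to 3 zero cells, -0.0069 and -0.052 when matched on detected genes, and -0.068 and -0.014 with a limit of 10 UMIs. Without the block *Erbb4* was at 0.0021 and *Epcam* at 0.10, and *Epcam* was at 0.016 with up to 3 zero cells, 0.054 with a limit of 1 UMI and 0.015 without immune-list UMIs. Differences in neighbour shares stayed positive with 10 and 50 neighbours. Matched *Col2a1* cells are shallow, so sparse genes limit what could be called.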

Other observations

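Procollagen processing genes, which modify and trim collagen chains in any collagen-secreting cell, had a median log2 fold change of 0.09 in *Col2a1* cells, with 14 of 23 tested genes positive and 0 called by edgeR, where 5 higher and 5 lower fell below an unadjusted p of 0.05. *Bmp1*, which cleaves the C-terminal propeptide of fibrillar procollagens, stood at 31.6 CPM ± 8.72 against 22.6 ± 8.24 (SD, n = 5) and was higher in 5 of 5 tumours (log2 fold change 0.49 ± 0.11 SE, edgeR adjusted p = 0.10). *P3h1*, a prolyl hydroxylase of collagen, stood at 53.8 CPM ± 17.5 against 39.7 ± 10.4 (0.42 ± 0.10 SE, edgeR adjusted p = 0.12), also higher in 5 of 5. Both were named after their values were seen.

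Cell cycle genes had 0 called of 14, and their median differed in sign between tumours, at 1.05 for BP replicate 1, 0.54 for BP replicate 2, -0.11 for MP, -0.07 for MP+BP and -0.19 for PD+MP. Epithelial genes, 7 tested with 0 called by edgeR and 3 lower at an unadjusted p under 0.05, had a median of -0.41. All 7 had negative fold changes. *Epcam*, at -0.05, stood at 214 CPM in *Col2a1* cells against 129 in zero cells in BP replicate 2 but at 37.1 against 75.7 in MP+BP.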
